A study of Mus musculus with 8 samples.

Results

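The vomeronasal receptor genes of the mouse were described in whole-genome bisulfite sequencing of muscle stem cells, a cell type outside the nose, where these receptors are known to act. Members were the protein-coding genes on chromosomes 1 to 19 whose RefSeq symbol starts with Vmn1r (type 1 receptors, V1R) or Vmn2r (type 2 receptors, V2R), each as the gene's span plus 2 kb on each side. The symbol found 354 genes, 231 V1R and 123 V2R, and 311 regions (191 V1R and 120 V2R) held the required minimum of 6 listed positions, out of 20419 protein-coding gene regions that did. Of the 354, Vmn1r-ps103 and Vmn2r-ps130 carry pseudogene-style symbols although RefSeq lists them as protein-coding. Of the 43 left out, 40 were V1R, 14 had no listed position (3 of them on unplaced scaffolds) and 29 had 1 to 5. This was 12.15% of the members, against 203 of 20311 other genes (0.9995%). The 6 members with exactly 6 positions had young levels from 45.6% (Vmn1r242) to 79.5% (Vmn1r249) and old levels from 45.9% to 88.7%, and the 9 with 5 positions, just under the minimum, had young levels from 40.96% (Vmn1r73) to 86.4% (Vmn1r93) and old levels from 23.7% to 75.6%.

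Quiescent muscle stem cells were sorted from limb muscle of male C57BL/6 mice as VCAM-positive cells without CD45, CD31 or Sca1, and the study compares 4 young mice (4 months) with 4 old mice (22 months), each library from 1 animal. The deposited table gives 1 methylation level and 1 dispersion per age group at each cytosine of a CpG (a C followed by a G, the main site of DNA methylation in mammals), with the authors' p-value and false discovery rate (FDR) for old against young. Neither levels of single animals nor read counts are given, so every level below is a group value without an SD, the depth behind it is unknown, and differences between the ages cannot be set against the spread between animals. The levels are smoothed along the chromosome, so neighbouring positions often carry the same pair of values: a member region had a median of 9 distinct pairs, 7 in V1R and 35 in V2R. The muscle stem cell genes Pax7, Myf5, Myod1, Spry1 and Heyl had low region levels in young cells (29.1%, 12.7%, 13.3%, 6.86% and 24.9%), whereas the blood gene Ptprc stood at 65.8% and the endothelial genes Pecam1 and Cdh5 at 65.8% and 68.2%. Vcam1, which was used in the sort, stood at 51.2% and Calcr at 64.1%. The 2 fibro-adipogenic genes Pdgfra and Ly6a stood at 49.1% and 52.2%. Trpc2 and Omp, which mark the sensory neurons of the vomeronasal organ, stood at 79.4% and 77.8%.

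The vomeronasal organ of the nose detects pheromones and other social cues. Its neurons are known to pick 1 or a few receptor genes each: V1R neurons signal through the G protein subunit Gnai2 and mostly detect small molecules such as steroids, and V2R neurons signal through Gnao1 and detect peptides and proteins. The genes lie in large clusters, formed by repeated duplication, that are largely silent outside these neurons, and many copies are nearly identical. V1R coding sequence lies in a single exon, V2R coding sequence is spread over several exons, so V2R regions are longer.

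Sequence at the start sites was examined first, because the number of CpGs there sets what bisulfite sequencing can measure. RefSeq promoter sequences (GRCm38.p6; 250 bases before to 50 after the start) matched 322 of the 354 members, and the 305 whose start matched that in the gene table were used. The promoters below are written 5′ to 3′ with every CpG in capitals. Vmn1r49 (chr6:90072969-90073268, minus strand) shows the 23.9% of member promoters that hold no CpG. Vmn2r26 (chr6:124024508-124024807, plus strand) holds 3 CpGs, where the V2R median is 1. Vmn1r157 (chr7:22761447-22761746, plus strand) and Vmn1r170 (chr7:23605925-23606224, plus strand) come from the largest V1R cluster and had low levels. Vmn1r54 (chr6:90268856-90269155, plus strand) holds 6 CpGs, the highest number in a V1R promoter, and Vmn2r29 (chr7:7278240-7278539, minus strand) the most of any member. All but Vmn1r49 and Vmn2r26 were picked after their values were seen.
Vmn1r49: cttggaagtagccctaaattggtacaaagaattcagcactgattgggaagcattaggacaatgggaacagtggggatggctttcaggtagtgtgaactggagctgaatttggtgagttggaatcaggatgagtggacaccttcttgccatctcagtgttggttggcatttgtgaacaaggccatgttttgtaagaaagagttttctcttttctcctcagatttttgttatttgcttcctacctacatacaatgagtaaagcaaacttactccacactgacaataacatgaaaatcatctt
Vmn2r26: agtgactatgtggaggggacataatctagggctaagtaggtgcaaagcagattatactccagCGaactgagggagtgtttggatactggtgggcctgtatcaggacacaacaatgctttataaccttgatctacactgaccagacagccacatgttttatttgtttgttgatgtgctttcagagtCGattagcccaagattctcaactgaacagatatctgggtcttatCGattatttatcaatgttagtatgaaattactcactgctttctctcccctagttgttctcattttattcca
Vmn1r157: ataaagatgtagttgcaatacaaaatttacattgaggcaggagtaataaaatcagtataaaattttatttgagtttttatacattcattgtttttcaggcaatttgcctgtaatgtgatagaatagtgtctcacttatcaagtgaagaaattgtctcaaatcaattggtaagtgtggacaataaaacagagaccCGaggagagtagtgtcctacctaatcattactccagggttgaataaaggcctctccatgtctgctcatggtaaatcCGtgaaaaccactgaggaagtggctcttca
Vmn1r170: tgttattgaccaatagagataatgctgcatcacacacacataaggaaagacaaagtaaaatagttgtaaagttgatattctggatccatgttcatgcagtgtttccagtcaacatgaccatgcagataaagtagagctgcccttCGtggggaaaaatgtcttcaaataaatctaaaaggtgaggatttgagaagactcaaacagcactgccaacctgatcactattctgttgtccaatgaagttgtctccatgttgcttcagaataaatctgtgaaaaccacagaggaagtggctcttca
Vmn1r54: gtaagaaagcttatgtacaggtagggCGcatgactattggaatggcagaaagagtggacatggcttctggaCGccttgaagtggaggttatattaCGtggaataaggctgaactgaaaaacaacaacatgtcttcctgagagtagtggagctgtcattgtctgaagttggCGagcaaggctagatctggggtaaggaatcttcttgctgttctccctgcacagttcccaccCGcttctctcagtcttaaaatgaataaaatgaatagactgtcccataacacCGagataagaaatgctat
Vmn2r29: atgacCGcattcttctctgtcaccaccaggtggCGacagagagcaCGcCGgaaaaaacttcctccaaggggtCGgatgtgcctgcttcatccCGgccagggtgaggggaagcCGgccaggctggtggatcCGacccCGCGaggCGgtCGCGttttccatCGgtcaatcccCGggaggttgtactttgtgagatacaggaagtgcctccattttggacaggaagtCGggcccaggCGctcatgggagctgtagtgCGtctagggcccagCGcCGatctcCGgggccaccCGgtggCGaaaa

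The sequences were poor in CpG. A member promoter held a median of 1 CpG, against 14 in other genes and 1 in olfactory receptors, and 73 of 305 held none, against 3.85% in other genes and 33.8% in olfactory receptors. The observed number of CpGs was a median of 0.146 of the number that the base composition gives in V1R and 0.094 in V2R, against 0.106 in olfactory receptors and 0.591 in other genes. The dinucleotides TG and CA, which methylated CpGs are known to become by mutation, stood at 1.29 times the number from base composition in V1R and at 1.35 in V2R, against 1.27 in olfactory receptors and 1.12 in other genes. Vmn2r29 was the exception: its promoter held 23 CpGs, all 46 of their cytosines were listed, and their mean level was 7.85% in the young and 6.83% in the old group, close to the level in the promoters of other genes (7.72% and 7.70%). The next highest CpG number among V2R promoters was 4.

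Levels at the promoters of vomeronasal receptors lay between those of other genes and those of olfactory receptors, the odorant receptors of the main olfactory epithelium. Listed cytosines averaged 46.4% in the young and 47.2% in the old group over the 102 member promoters with a level, against 64.6% and 65.5% in olfactory receptors. Vmn2r29 weighs on this mean: V2R promoters averaged 43.3% and 43.2% with it and 56.4% and 56.7% without it. Under 20% in young cells were 13 of the 102 (12.7%), 11 V1R and 2 V2R, against 69.1% in other genes and 4.28% in olfactory receptors. Among these, Vmn1r157 stood at 10.3% in the young and 17.5% in the old group over 4 cytosines, and Vmn1r170 at 9.48% and 6.72% over 2. The CpG-richer promoter of Vmn1r54 was high, at 68.1% and 67.7% over 7 listed cytosines. Vmn2r26 had 1 of its 6 CpG cytosines listed, at 34.0% and 33.4%.

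A wider window, 500 bp on each side of the start, showed the same order. In young cells the window stood below the gene's own whole region in 71 of 110 V1R (64.5%) and in 42 of 55 V2R (76.4%), against 369 of 778 olfactory receptors (47.4%) and 6958 of 8376 other genes (83.1%). The median gap between window and region was -4.997 points in V1R and -15.5 in V2R in young cells, and -6.01 and -9.11 in old cells. In olfactory receptors it was 0.53 and 0.67 points. The mean level of the V2R windows rests in part on Vmn2r29, which gave 116 of their 369 positions: it was 42.4% in young cells with that gene and 55.2% without it, against 53.3% in V1R, 66.6% in olfactory receptors and 8.70% in other genes. By age, 61 of 110 V1R windows and 31 of 55 V2R windows were higher in old. The same held in 421 of 778 olfactory receptors and in 3592 of 8376 other genes. Windows under 20% numbered 11 in young cells and 9 in old cells among V1R, and 6 of them were the same genes.

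**Figure D1:**
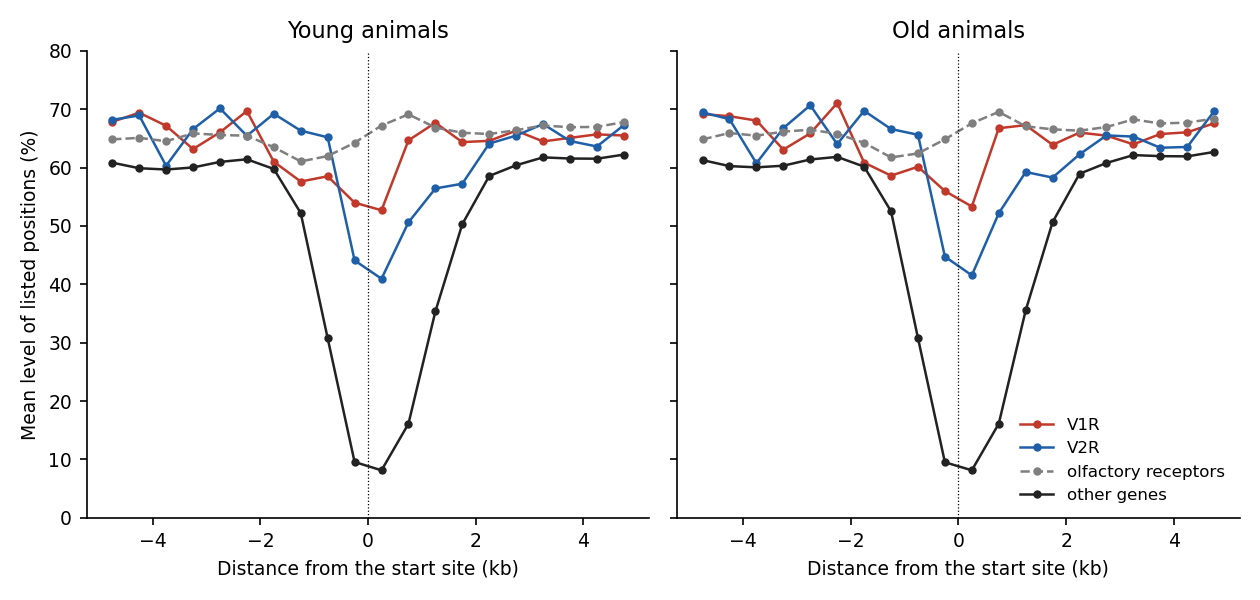
Mean methylation level of listed positions (vertical axis, percent) by distance from the start site (horizontal axis, kb, bins of 500 bp) in young (left) and old (right) muscle stem cells, for V1R, V2R, olfactory receptors and other genes. Both vomeronasal families dip at the start, V1R to 52.7% and V2R to 40.95% in the young bin just after it, while olfactory receptors stand at 67.2% there and other genes at 8.14%; Vmn2r29 is included.

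Within the V1R family, promoters with a CpG at 1 particular place had lower levels than the others. Counting the first base of the gene as 1, 41 V1R promoters held a CpG at position 21, and the 15 of them with a level averaged 27.6% in the young and 29.0% in the old group. Of these 41, 16 also held a CpG at position -56, as in Vmn1r157, and the 7 with a level averaged 27.8% and 30.7%. The 50 V1R promoters with a level whose CpGs lay elsewhere averaged 56.7% and 58.4%. Every 101-base stretch, as defined below, was shared in 32 of the 41 promoters and in 24 of the 116 with CpGs elsewhere. In the largest V1R cluster, on chromosome 7 between 20.1 and 24.1 Mb, 40 of 83 promoters had CG at position 21, 8 had TG and 3 had CA. That cluster's promoters averaged 36.8% in the young and 37.3% in the old group (24 promoters with a level). Clusters with 4 or more such V1R promoters ran, by young level, from there through 39.5% and 33.3% on chromosome 17 (4 promoters), and 43.2% and 60.9% in the cluster of Vmn1r55 to Vmn1r65 on chromosome 7 (4 promoters), to 70.9% and 70.2% in the cluster between 7.21 and 13.2 Mb (4 promoters). These are descriptions of few cytosines, and members of 1 cluster share sequence by descent. Positions 21 and -56 were not among the planned comparisons. Nearly all of the 41 promoters with a CpG at 21 come from the largest V1R cluster, and those with CpGs elsewhere from several clusters. The levels were not compared within 1 cluster, so position cannot be told apart from cluster here.

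Near-identical sequence went together with missing values. A 101-base stretch, the read length in the labels, was called shared when another promoter in the RefSeq table held the same letters. Every such stretch was shared in 64 of the 305 member promoters (20.98%), against 1.73% in other genes; 56 of the 64 were V1R. Where no stretch was shared, 55.8% of CpG cytosines were listed (252 of 452); where all were, 7.19% were (20 of 278). Vmn1r157 is one of the few promoters of the second kind with values. Values were also missing where sequence was rarely shared. In olfactory receptors, with every stretch shared in 0.446% of promoters, 61.1% of CpG cytosines were listed. In other genes 97.1% were. Member regions that missed the minimum of 6 positions had all stretches shared in 31 of 38 promoters, against 33 of 267 among those that passed. In the cluster between 20.1 and 24.1 Mb, 34 of 86 V1R fell under the minimum and 11 had no position. The sources used here do not say how reads that match several places were treated, and its part in these numbers was not tested.

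Over whole regions, vomeronasal receptors had a higher mean level than protein-coding genes at large and a slightly lower one than olfactory receptors. The mean over the 311 regions was 61.0% in young cells (SD over regions 9.42) and 61.9% in old cells (SD 9.84), against 55.8% and 56.2% over all protein-coding gene regions and 63.9% and 64.4% in 1075 olfactory receptor regions. V1R stood at 60.01% and 61.1%, and V2R at 62.5% and 63.0%. Levels in young cells ran from 30.9% to 84.0%. At like numbers of listed positions the order against other genes turned: young medians of members and other genes were 59.0% and 60.1% at 10 to 19 positions, 61.1% and 62.7% at 20 to 49, 58.6% and 65.1% at 50 to 99, and 63.4% and 64.7% from 100 to under 200, and the members stood higher (68.3% and 58.1%) only from 200 positions on. At 6 to 9 positions the medians were 56.1% and 59.1%. The regions were thinly covered, with a median of 3.86 listed positions per kb, against 21.8 in other genes.

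**Figure D2:**
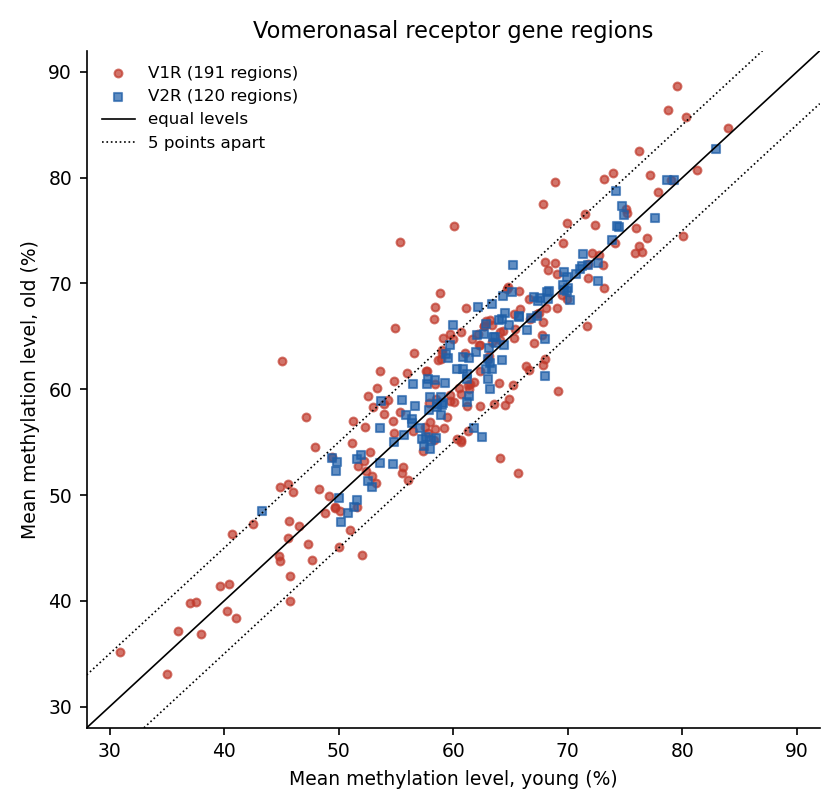
Mean methylation level of each of the 311 regions in young (horizontal axis, percent) and old (vertical axis, percent) muscle stem cells, V1R as circles and V2R as squares; the solid line marks equal levels and the dotted lines a difference of 5 points. Most regions lie within the dotted lines, 38 lie above and 18 below.

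The lowest young levels among regions with at least 20 positions were those of 4 V1R. Vmn1r210 (chr13:22827194-22828114) stood at 30.9% in the young and 35.2% in the old group over 26 positions, and 20 of these lay in its right flank at 25.4% and 29.2%. Vmn1r122 (chr7:21133211-21134128) stood at 35.0% and 33.1%, and Vmn1r157 at 37.6% and 39.9%. Vmn1r4 (chr6:56923914-56957608), at 38.0% and 36.9%, drew on another gene: its left flank overlaps Nt5c3, a nucleotidase gene, and the 122 positions there stood at 6.98%, whereas its span stood at 52.3% in young cells. In all, 4 member regions overlap a protein-coding gene that is not a vomeronasal receptor, and the mean difference by age given below was 0.892 points without them.

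The highest levels were equally local. Vmn1r48 (chr6:90035933-90036841) stood at 84.0% in the young and 84.7% in the old group, and 263 of its 266 positions lay in the left flank. Vmn2r35 (chr7:7786151-7819867) stood at 82.9% and 82.7% over 305 positions, mostly inside the span, and Vmn2r38 (chr7:9074796-9097765) at 79.3% and 79.8%. Vmn1r23 (chr6:57925883-57926791) stood at 81.3% and 80.8%. The largest difference by age among these 8 regions was the 4.27 points of Vmn1r210.

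The difference between old and young cells was small and went both ways. It averaged 0.90 points over the 311 regions (SD over regions 3.94, median 0.68), 1.11 in V1R (SD 4.63) and 0.56 in V2R (SD 2.46), against 0.38 over all gene regions. In regions of 6 to 9 positions the V1R mean was 4.29, and from 100 positions on it was 0.63 in V1R and 0.67 in V2R. Higher in old were 177 of 311 regions (56.9%), 105 of 191 V1R and 72 of 120 V2R. This share was below the 72.4% of all 20419 gene regions and near the 55.9% of olfactory receptors. Among regions with at least 200 positions it was 73.1% of 26 members and 75.5% of other genes. Taking away the mean difference of all autosomal positions left 0.426 points over the members and 0.0888 in V2R.

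By size, 56 of 311 members (18.01%) differed by at least 5 points, 38 higher and 18 lower in old, against a background of 1.9% of all gene regions, 1.15% higher and 0.749% lower. These counts carry no test. The same share in olfactory receptors was 18.1%. V1R gave 48 of the 56 and V2R gave 8 (25.1% and 6.67% of their regions). The share moved with the number of listed positions. In regions of 20 to 49 positions 18.5% of members differed by 5 points, beside 14.3% of other genes, and in regions of 6 to 9 positions 60.9% did, beside 81.5%. Of the 63 member regions with at least 100 positions none did, and 2 of 17758 other genes did. V1R regions are short, with a median of 20 positions against 96.5 in V2R. Within 20 to 49 positions, 17 of 84 V1R and 3 of 24 V2R differed by 5 points.

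**Figure D3:**
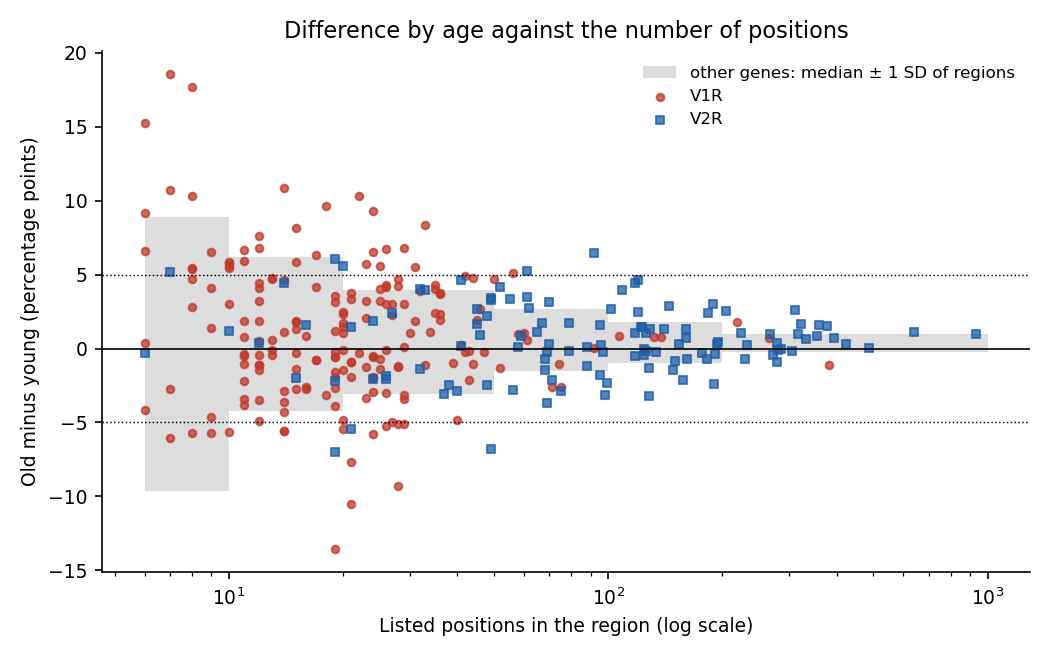
Old minus young level (vertical axis, percentage points) of each member region against its number of listed positions (horizontal axis, log scale), V1R as circles and V2R as squares, with the median ± 1 SD of other genes in grey and 5 points as dotted lines. The members spread widely at few positions, up to 18.5 points, and stay within 5 points of 0 from 100 positions on.

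The region test called no member. It took 2 times the median of the p-values in the authors' deposited table over a region's positions and adjusted by Benjamini-Hochberg over the 20419 gene regions. No region passed an adjusted p of 0.05 (a background of 0%), and all adjusted p-values were 1. Before adjustment 2 gene regions had a p under 0.05, 1 of them a member. That member was Vmn1r142, with a p of 0.0485, at 55.4% in the young and 73.9% in the old group. All 7 of its positions carry a single pair of smoothed levels, so they stand for 1 measurement.

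Members with at least 20 positions gave the named examples of large differences, none of which passed the region test. Vmn1r174 (chr7:23753911-23754852) differed most in this direction, at 58.9% in young cells and 69.1% in old ones: 20 of its 22 positions were higher in old cells, at 52.9% to 77.2% in young and 65.1% to 80.8% in old cells, and its last listed CpG went the other way, 17.98% against 8.38%. Vmn1r191 stood at 58.5% in the young and 67.8% in the old group, Vmn1r40 at 58.3% and 66.7%, and Vmn1r222 at 56.6% and 63.4%. In Vmn1r222 28 of 29 positions pointed the same way (96.6%). The smoothed levels give 15 distinct pairs there and 12 in Vmn1r174, so the positions are not separate measurements. Vmn1r121 (53.3% and 60.1%), Vmn1r67 (61.1% and 67.7%) and Vmn1r68 (59.1% and 64.8%) complete the V1R of this group. The difference of Vmn1r121 lay in its flanks: its span alone stood at 67.9% and 67.7%.

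Vmn2r86 (chr10:130446199-130455894), a V2R, was the best covered of the higher regions, with 92 positions at a mean of 65.3% in the young and 71.7% in the old group. Its span averaged 68.4% and 69.5%, with 7 positions lower in old cells between 3229 and 3368 bp from the region's left end (83.4% and 77.9%) and 1 CpG higher at 11227 bp (43.7% and 66.4%). In the left flank, between 414 and 916 bp, young levels ran from 49.04% to 74.3% and old levels from 61.7% to 79.6%. In the right flank 5 positions averaged 55.3% in the young and 79.2% in the old group. One of these, 12173 bp from the left end, stood at 48.4% and 79.0% and had, by the authors' deposited table, an FDR of 0.00366. The gene's own cluster at the end of chromosome 10, Vmn2r84 to Vmn2r87, was higher in old cells in 4 of 4 regions, beside 72.4% of all gene regions.

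The lower regions were as scattered. Vmn1r185 (chr7:26611119-26612078) stood at 64.1% in the young and 53.5% in the old group, from 21 positions that all lie in its flanks, and Vmn1r184, the other member of its cluster, went the other way (55.0% and 65.8% over 14 positions). Vmn1r85 (chr7:13084289-13085215), a receptor known to respond to sulfated steroids, stood at 69.1% and 59.9% over 28 positions, and at 72.5% and 60.4% within its span. Vmn1r116 stood at 52.0% and 44.4%, Vmn1r207 at 64.8% and 59.1%, Vmn1r203 at 60.7% and 55.2%, and Vmn1r69 at 61.2% and 56.04%. Of the V2R, Vmn2r43 stood at 61.8% and 56.3% over 21 positions, and Vmn2r15 (chr5:109286269-109297556) at 68.0% and 61.2% over 49. By the authors' deposited table, p was under 0.05 at 9 of these 49, beside 5.61% of member and 2.57% of autosomal positions. The 49 carry 20 distinct pairs of smoothed levels, so they are not separate measurements. Vmn2r15 was named for its large difference, so this count is not separate evidence for it. In Vmn2r15 the start-site window of 8 positions stood at 41.4% in the young and 29.7% in the old group.

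Several of these differences depended on where the region ended. With flanks of 5 kb in place of 2 kb, the difference of Vmn1r174 was 1.9 points, and that of Vmn1r191 was 5.49, of Vmn1r67 2.95 and of Vmn2r86 1.98. On the lower side it was -6.21 in Vmn1r185, -2.83 in Vmn1r85, -2.78 in Vmn2r15 and -2.56 in Vmn1r207. In the span alone it was 15.6 points in Vmn1r191, 1.59 in Vmn1r40, 1.1 in Vmn2r86 and -0.332 in Vmn1r69, and in Vmn1r121 it was -0.111 in the span and -0.0212 with 5 kb.

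**Figure D4:**
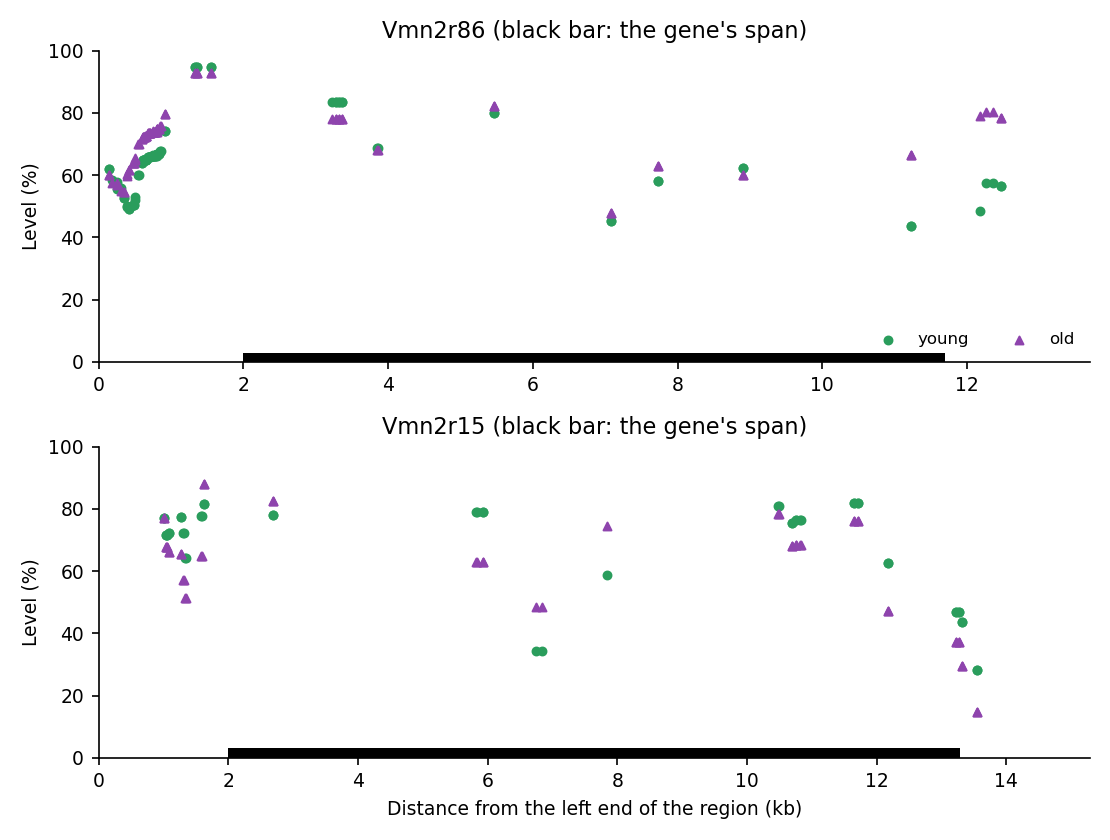
Level of each listed position (vertical axis, percent) of Vmn2r86 and Vmn2r15 in young (circles) and old (triangles) muscle stem cells by distance from the left end of the region (horizontal axis, kb), with the gene's span as a black bar. In Vmn2r86 old levels stand above young ones at most positions of the left flank, at the right end of the span and in the right flank; in Vmn2r15 old levels stand below young ones at most positions.

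Of the 13 receptors with known partners or ligands, Vmn1r85, described above, and Vmn1r49 differed by at least 5 points (-9.28 and 5.41). The share past 5 points was 18.01% over all members and 1.9% over all gene regions. Vmn1r49 held 8 positions, and at 6 to 9 positions 60.9% of members and 81.5% of other genes passed 5 points. Vmn2r1 to Vmn2r7, which are known to be expressed alongside other V2R in the same neurons, form a cluster on chromosome 3 (64.1 to 64.7 Mb), with 45 to 933 listed positions each. Young and old levels were 67.6% and 68.6% in Vmn2r1 over 933 positions, 67.0% and 68.7% in Vmn2r2, whose region lies inside that of Vmn2r1, 59.3% and 60.6% in Vmn2r3, and 69.7% and 71.1% in Vmn2r4. They were 74.7% and 77.4% in Vmn2r5, 69.7% and 69.4% in Vmn2r6, and 73.8% and 74.1% in Vmn2r7. Higher in old cells were 6 of the 7, by 0.28 to 2.65 points, beside 72.4% of all gene regions, and none passed the region test.

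Vmn2r26, a V2R known to respond to peptides that bind MHC molecules, stood at 63.7% in the young and 65.0% in the old group over 160 positions. Vmn2r116, the receptor of the male tear peptide ESP1, stood at 54.7% and 53.0% over 95. Vmn2r88, which responds to haemoglobin, stood at 65.1% and 69.2% over 32 positions, with 1 position called in each direction in the authors' deposited table. Among V1R, the heptanone receptor Vmn1r49 stood at 53.0% and 58.4% over 8 positions and the sulfated steroid receptor Vmn1r89 at 66.6% and 68.6% over 45.

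Most clusters held members that differed in both directions. Members whose regions follow each other within 1 Mb formed 26 clusters, 7 of them of a single gene. The cluster between 20.1 and 24.1 Mb on chromosome 7 had 30 regions higher and 22 lower in old cells and a mean difference of 1.65 points (SD over members 5.27). On chromosome 13 (22.1 to 23.3 Mb) 22 of 36 V1R were higher, with a mean of 1.34 points (SD 3.97). The mixed cluster of V1R and V2R between 7.21 and 13.2 Mb on chromosome 7 had 27 higher and 22 lower (mean 0.52, SD 3.64), and the mixed cluster on chromosome 17 (17.7 to 21.3 Mb) had 17 in each direction. Lower in old on average were the V1R cluster of Vmn1r32 to Vmn1r39 on chromosome 6, with 6 of 8 lower (mean -1.78, SD 2.92), and the V2R cluster of Vmn2r111 to Vmn2r117 on chromosome 17, with 5 of 8 lower (mean -0.34, SD 2.35). Vmn1r238 on chromosome 18, a cluster of its own with 24 positions, was also lower (-2.96 points). Of all gene regions 72.4% were higher in old, and the cluster means were not tested.

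**Figure D5:**
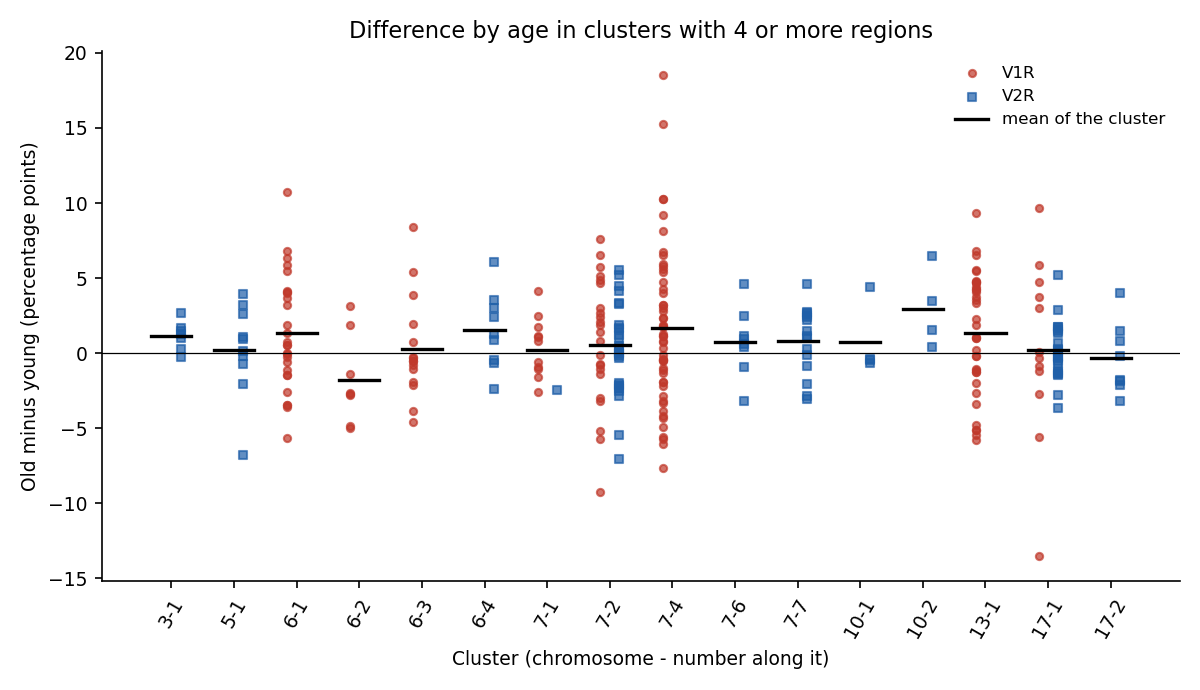
Old minus young level (vertical axis, percentage points) of each region by cluster (horizontal axis, chromosome and number along it), for clusters with 4 or more regions; circles are V1R, squares V2R and bars the cluster mean. Members of 1 cluster lie on both sides of 0 in every cluster but 10-2, Vmn2r84 to Vmn2r87.

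Single positions were called more often in these regions than elsewhere. The 311 regions held 21326 positions, each counted once, at 64.3% in the young and 64.9% in the old group, against 64.0% and 64.5% over all autosomal positions. By the authors' deposited table, 163 of them passed an FDR of 0.05 (0.764%), 83 with more methylation in old cells and 80 with less, against a background of 0.233% of all autosomal positions, 0.13% higher and 0.103% lower. The share was 0.718% in V1R, 0.78% in V2R and 0.528% in olfactory receptors. The excess moved with how thinly a place was listed. In 1-kb stretches with 1 to 2 positions 2.89% of member positions were called, beside 2.78% of all; in those with 3 to 4 it was 1.57% beside 1.70%, with 5 to 8 it was 1.05% beside 0.817%, and with 9 to 16 it was 0.402% beside 0.271%. From 17 positions on, none of the 6237 member positions was called, beside 0.0421% of all positions in stretches with 17 to 40 and 0.00354% in denser ones. The part of listing density in the calls was not tested beyond these counts.

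Most calls stood alone. Of the 163, 143 carried the most common dispersion value of young or old cells (0.0438 and 0.0434), and 20 remained without such positions, 9 higher and 11 lower. Of all 74625 autosomal calls, 3535 higher and 2650 lower remained. Both cytosines of a CpG, which sit on opposite strands, were called higher in old at 569 autosomal CpGs and lower at 409. Within the member regions both were called in the same direction at 2 CpGs. One lies in the spans of Vmn2r1 and Vmn2r2 (chr3:64148734-64148735), at 22.9% in the young and 83.1% in the old group, with an FDR of 5.13e-09 for the second cytosine as given in the authors' deposited table. The other lies in the span of Vmn2r53 (chr7:12605616-12605617), at 41.1% and 81.0%, with an FDR of 1.57e-07 for the first cytosine as given in the authors' deposited table; another position 75 bp on has the same levels and was called too. Among positions past the FDR in the authors' deposited table, the steepest falls were in the span of Vmn1r192 (54.6% to 9.17%) and in a flank of Vmn1r143 (51.6% to 12.5%). These 4 sites were chosen after their values were seen.

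Called positions were spread over 92 of the 311 members, 27 of which held calls in both directions, and 121 of the 163 lay within a gene's span. These counts were not set beside like shares of all gene regions or of all listed positions, so they are not read as a trait of the members. Vmn2r56 (chr7:12693860-12733320) held most, 7 among 424 positions, 3 higher and 4 lower, and its mean hardly differed (71.0% and 71.4%). Vmn2r91 (chr17:18085057-18136643) held 6, 5 of them higher. At 2 positions 12 bp apart in Vmn2r91 the level was 54.4% in the young and 97.5% in the old group, and the region's mean was 69.9% and 70.6%. Vmn2r57 and Vmn2r113 held 5 each, in both directions (2 higher and 3 lower; 3 higher and 2 lower), and Vmn2r1 (3 higher and 1 lower) and Vmn2r59 (2 and 2) held 4 each.

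The dispersion, a number per position and age group without a stated definition, was similar in both ages. Its median over members was 0.0456 in young and 0.0457 in old cells, and 162 of 311 members were higher in old, against 12200 of 20419 gene regions. Among regions with at least 20 positions Vmn1r215 differed most upward, at 0.0440 in young and 0.0645 in old cells, followed by Vmn1r204 (0.0525 to 0.0716), Vmn1r113 (0.0524 to 0.0712) and Vmn2r-ps130 (0.0508 to 0.0632). Vmn1r167 differed most downward, at 0.0585 and 0.0491, followed by Vmn1r213 (0.0562 to 0.0481), Vmn1r201 (0.0518 to 0.0449) and Vmn1r207 (0.0489 to 0.0426). Their levels differed by -5.78 points in Vmn1r207 and by less than 4 points in the other 7.

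Other genes of the vomeronasal system and other chemoreceptors were counted against the same 5 points, which 1.9% of all gene regions passed. Of the peptide ligands, 0 of 15 Esp genes differed by 5 points, with a median difference of 0.70. Of the major urinary proteins, which carry male odours, 7 of 20 did, with a median difference over the 20 of 1.73 points beside 0.37 over all gene regions: Mup9 (60.8% to 75.7%), Mup14 (63.6% to 77.4%), Mup18 (53.4% to 61.8%), Mup3 (62.2% to 68.5%) and Mup13 (60.2% to 66.2%) were higher in old cells, and Mup15 (67.2% to 57.5%) and Mup11 (68.1% to 62.6%) lower. These 7 regions held 9 to 36 positions, and the 20 a median of 24.5. Other genes past 5 points made up 81.5% at 6 to 9 positions, 25.7% at 10 to 19 and 14.3% at 20 to 49. The 5 formyl peptide receptors, another receptor family of the organ, and the 9 H2-M class Ib genes, which are expressed with V2R, had none past 5 points. The 13 transduction genes had none, with a median of 955 positions: Trpc2, the ion channel of these neurons, stood at 79.4% and 79.9%, Omp at 77.8% and 78.8%, Gnai2 at 38.5% and 39.0%, and Gnao1 at 62.9% and 63.6%. The 10 regulators of vomeronasal neurons had none. Of other chemoreceptors, 6 of 33 bitter receptors did: Tas2r109 (40.6% to 46.8%), Tas2r116 (47.0% to 52.3%), Tas2r120 (57.3% to 62.7%) and Tas2r140 (41.4% to 48.9%) were higher, and Tas2r110 (72.8% to 66.0%) and Tas2r125 (54.0% to 46.5%) lower. Of the 15 trace amine-associated receptors 2 did, Taar7a (60.7% to 66.1%) and Taar8c (52.2% to 60.04%), both higher. The median number of positions was 25 in the bitter receptors and 57 in the trace amine-associated ones. At 50 to 99 positions 2.71% of other genes passed 5 points. None of these regions passed the region test, in which the background was 0% called.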

How the data were processed

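Whole-genome bisulfite libraries of 4 young and 4 old mice fell into groups by labelled age. Reads, per the labels' protocols, were paired-end of 101 bp; the submitters' processing notes name Trim Galore, Bismark and edgeR with builds mm10 and GRCm38, without roles or versions. The authors deposited 1 table for the series. Its level, per the file headers, is the authors' methylation fraction for each age group, printed here in percent; runs of equal values show that it was smoothed. Bisulfite does not tell methylcytosine from hydroxymethylcytosine. Its dispersion is a score per group that the authors computed, with no definition in the sources used here. Its p-value and FDR are the authors' own, per the file headers. No value per animal and no count is in that table, so depth per position is unknown and the planned tests over libraries were not run.

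Deposited positions count from 0: after adding 1, 27750 isolated CpGs of RefSeq promoters had a listed position on the CpG and 0 elsewhere. Printed coordinates count from 1, in mm10. Gene spans and promoters came from RefSeq tables of GRCm38.p6, credited with every sequence printed. A region level is the mean over its listed positions, so places with many CpGs weigh more; 323 positions lie in several member regions. Regions needed 6 positions. The region test took 2 times the median p of the authors over its positions, adjusted by Benjamini-Hochberg over all gene regions. Alternatives were the span alone, flanks of 5 kb, other minimums, thresholds and weights, 1 value per CpG, and omission of positions with the most common dispersion value.

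Named members were 13 receptors with known partners or ligands, and, among those with at least 20 positions, the 8 largest differences each way, the 4 highest and lowest young levels and the 4 largest dispersion changes each way, plus the 5 with most called positions and list members past 5 points. Vmn1r54, Vmn1r142, Vmn1r143, Vmn1r170, Vmn1r184, Vmn1r192, Vmn2r29, Vmn2r53 and Vmn2r59 were named after their values were seen. Members and lists were chosen with earlier results of these data known. Python 3.11.15, numpy 2.4.6 and pandas 2.3.3 were used.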

Additional observations from a re-analysis of the deposited data

How the results depend on the processing

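The mean difference of 0.896 points stayed above 0 under every alternative run, at 0.426 less the autosomal mean difference, 0.563 without positions at the most common dispersion and 1.36 with equal weight per cluster, which rests on Vmn1r90, a cluster of its own with 8 positions (0.71 without it, an alternative chosen after seeing the data). The V1R mean of 1.11 was 1.94 for the span alone, 0.692 from 20 positions, 0.595 with no minimum, 0.62 without the most common dispersion and 0.638 less the autosomal mean; the V2R mean of 0.559 was 0.0888 less that mean and 0.669 with no minimum, above the V1R value. The count past 5 points was 56; it was 23 from 20 positions, 122 at 3 points and 9 at 10 points. The 163 called positions fell to 20 without the most common dispersion and to 4 where both strands of a CpG had to be called. The V2R start-site level of 42.4% was 55.2% without Vmn2r29, also chosen after seeing the data. Of 76 alternative values of the 16 largest named differences, 60 kept direction and 5 points, 14 kept direction under 5 points, and 2 reversed, both of Vmn1r121 (-0.111 points for the span alone, -0.0212 with flanks of 5 kb). The 76 include subtraction of 1 constant and merging of strands with mostly equal levels, which could change little. With flanks of 5 kb, only Vmn1r68, Vmn1r69, Vmn1r116, Vmn1r185, Vmn1r191 and Vmn1r222 of the 16 kept 5 points. Regions called stayed at 0 under the 3 alternatives of the region test. The cause of these changes was not tested. No paired analysis was possible because the table holds 1 value per age group; leaving out each replicate was not run for the same reason. Smoothing, few listed CpGs, unknown depth and unlisted near-identical copies limit these values.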
